A study of Homo sapiens with 6 samples.

Results

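The 60 genes described here lie on the short arm of human chromosome 11 (11p), each more than 5 Mb from the ultra-conserved element (UCE) PAX6_Ta. They are a fixed list, RNH1 to NUP160 along the arm, drawn up to follow the level of 11p after earlier comparisons of these libraries had shown 11p genes higher in both knockout lines than in Control. The comparisons of each knockout with Control therefore chose the list, and their values for these genes are a description with no test. The comparison of the knockouts with each other was not itself used for the choice and was tested. An arm picked for being higher in both knockouts favours small differences between them, so this test is not independent of the choice. All 60 were found in the count table, as 60 of 52088 entries, and all 60 passed the filter on low counts, as 60 of 20746 tested genes. A further 276 tested genes of 11p outside the window are not on the list. On the distance that defines the list, its nearest genes are PRMT3, whose nearer end is 11.28 Mb from the element and log2 fold changes of 0.57 in PAX6_Ta KO and 0.37 in PBX3_Cl KO against Control, and API5, at 11.52 Mb with 0.34 and 0.43. Just inside the window, CCDC34 stood at 0.72 and 1.14 and IFTAP at 0.10 and 2.55 in the same comparisons.

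The cells were K562, a human erythroleukaemia line. The groups were PAX6_Ta KO (genotype PAX6_Tarzan Knockout), PBX3_Cl KO (genotype PBX3_Claudia Knockout) and Control (genotype WT), with 2 libraries each. The knockout lines were picked as single clones after transfection with a Cas9 plasmid carrying a guide pair and puromycin selection, and no source used here says that Control went through these steps. Loss of an element, transfection, selection and growth from a single cell can therefore not be told apart in a comparison with Control, and how many clones the 2 libraries of a knockout stand for is not stated. Nor is it stated that replicates were separate cultures, so p-values measure how far these libraries differ, and that may be technical variation. RNA alone was measured, and DNA copy number was not. In bulk libraries, a change of RNA per cell and a change in the mix of cells cannot be told apart.

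Genes lie on one chromosome arm whatever they do, so a set spread along an arm shares position and little else. The list holds subunits of large machines (the proteasome, the nuclear pore, RNA polymerase II, the translation factor eIF3), enzymes of the lysosome, regulators of autophagy, transcription factors and enzymes of metabolism. Many of these proteins work in fixed ratios with partners encoded on other chromosomes. K562 is a cancer line with an abnormal karyotype.

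PAX6_Ta spans 434 bp of 11p (chr11:31810437-31810870, GRCh37). The guides that define the PAX6_Ta KO deletion are printed because every distance below is counted from the site they flank, with the PAM in capitals.
U6 guide: gctttctgtgcggttgtggaTGG
H1 guide: caagtccattccttccccagTGG
The U6 guide matched the minus strand at chr11:31809917-31809939 and the H1 guide the plus strand at chr11:31811316-31811338, and their cuts enclose 1410 bp. PBX3_Cl lies on another chromosome. The 60 genes run from RNH1 (chr11:494512-507300) to NUP160 (chr11:47799639-47870107), on both sides of the element.

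The libraries held 45912044 to 60908470 counts. Of the erythroid markers, 13 of 13 were above 1 CPM (counts scaled to library size) in every group, with summed levels of 10700 to 11100 CPM in PAX6_Ta KO, 8530 to 8780 in PBX3_Cl KO and 6260 to 6890 in Control. Of the markers of other cell types, the 4 epithelial genes summed to 1180 to 1660 CPM in PAX6_Ta KO, 405 to 720 in PBX3_Cl KO and 679 to 782 in Control. The 3 pluripotency genes summed to 102 to 112 CPM in PAX6_Ta KO, 1.02 to 1.68 in PBX3_Cl KO and 4.71 to 5.98 in Control, and the 5 fibroblast genes to 22.1 to 25.2, 2.76 to 3.14 and 48.3 to 140 in the same order of groups. Few genes made up these sums. In that order of groups, mean CPM was above 1 for 1, 1 and 2 of the 3 pluripotency genes. Of the 5 fibroblast genes, it was above 1 for 2, 1 and 1. The T cell, B cell and myeloid lists summed to between 1.70 and 11.7 CPM in every library. The erythroid list includes the globin genes HBG1, HBG2 and HBE1, which lie on 11p themselves, so its sums are not separate from that arm. The part of the marker differences in the levels of the 11p genes was not tested. The mRNAs of the mitochondrial genome took 1.54% to 1.90% of counts in PAX6_Ta KO, 2.35% to 2.40% in PBX3_Cl KO and 1.48% to 1.55% in Control.

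The 60 genes together were higher in both knockout lines than in Control. Their CPM summed to 8189 and 7682 in PAX6_Ta KO and 8569 and 7336 in PBX3_Cl KO, against 5543 and 5149 in Control. They took 0.789% and 0.837% of all counts in PAX6_Ta KO and 0.785% and 0.732% in PBX3_Cl KO, against 0.546% and 0.542% in Control. All 4 knockout libraries lay above both Control libraries. The median gene of the list stood at 0.64 and 0.52 on the log2 scale over the Control mean in the PAX6_Ta KO libraries and at 0.68 and 0.51 in the PBX3_Cl KO libraries, against 0.04 and -0.04 in the Control libraries. In each group, replicate 1 was the higher library on this measure. Among the other tested genes of 11p outside the window the order was the opposite. Their medians were 0.53 and 0.64 in PAX6_Ta KO replicates 1 and 2, and 0.47 and 0.70 in those of PBX3_Cl KO.

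**Figure D1:**
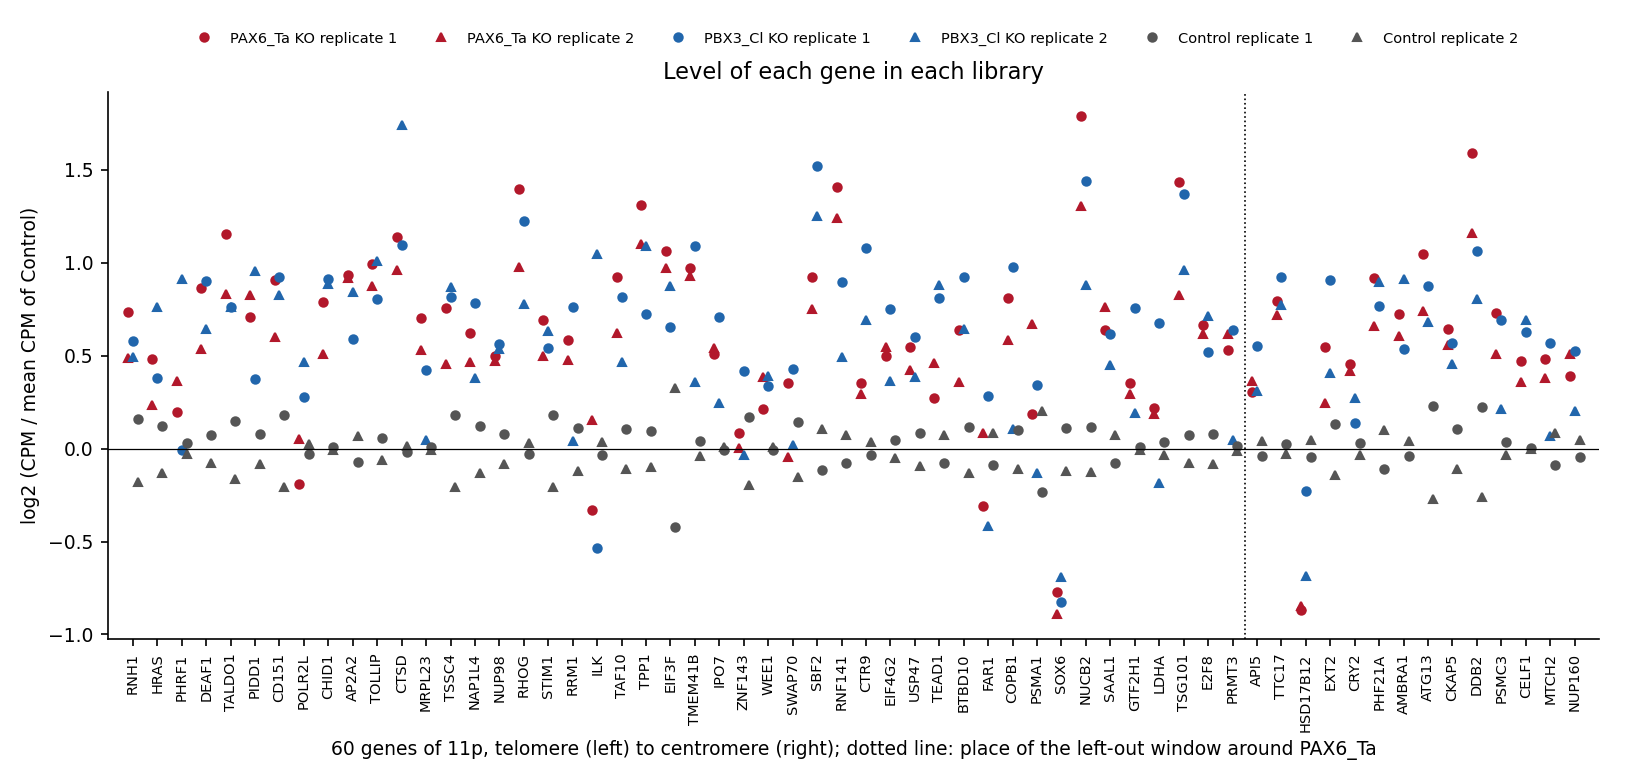
Each point is the level of 1 gene in 1 library, as log2 of its CPM over the mean CPM of the 2 Control libraries (y axis), with the 60 genes in order along 11p (x axis). Most red (PAX6_Ta KO) and blue (PBX3_Cl KO) points lie above the grey Control points, and SOX6 and HSD17B12 are below them in all 4 knockout libraries.

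In PAX6_Ta KO against Control, the median log2 fold change of the 60 genes was 0.60, a fold of 1.51, with an interquartile range of 0.39 to 0.78 and a range of -0.86 for HSD17B12 to 1.56 for NUCB2. Of the 60, 55 were above 0. Both PAX6_Ta KO libraries lay above both Control libraries for 52 genes and below for 2, where 27.0% and 28.0% of all tested genes did so. By edgeR's quasi-likelihood test at an adjusted p below 0.05, 24 of the 60 were called higher and 2 lower, beside 7.21% called higher and 4.21% called lower among all tested genes. With PAX6_Ta KO replicate 1 left out, 4 were called higher in place of 24, and with its replicate 2 left out 15. Leaving out the first Control library gave 12, and the second 9. Because the list was chosen on this comparison, these counts describe it and test nothing.

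In PBX3_Cl KO against Control, the median was 0.60 again, a fold of 1.52, with an interquartile range of 0.44 to 0.80 and a range of -0.76 for SOX6 to 1.45 for CTSD. Of the 60, 57 were above 0. Both PBX3_Cl KO libraries lay above both Control libraries for 49 genes and below for 2, where 23.5% and 20.6% of all tested genes did so. By edgeR, 20 of the 60 were called higher and 0 lower, beside 6.28% and 2.69% of all tested genes (43 and 1 of the 60 at an unadjusted p under 0.05, and 24 and 1 by DESeq2). Leaving out the first Control library gave 9 called higher, and the second 6. The same Control libraries serve both comparisons, so the values of each are given side by side and not as support for one another.

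The genes differed among themselves. The standard deviation between the 60 log2 fold changes reached 0.44 for PAX6_Ta KO and 0.36 for PBX3_Cl KO against Control, where the root mean square of their standard errors was 0.22 in both. Between the knockouts the standard deviation was 0.25 and the error again 0.22. Across the 60 genes, the log2 fold change had a Spearman correlation with the Control level per kb of exon of -0.17 in PAX6_Ta KO and -0.22 in PBX3_Cl KO, and with exon length of -0.02 and 0.06 (descriptions over 60 genes that share libraries).

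The comparison between the knockouts asks whether they differed from each other in these genes. The list's choice did not use it directly, but a choice of genes higher in both knockouts favours small differences here. The median log2 fold change of PAX6_Ta KO over PBX3_Cl KO was -0.03, with 28 genes above 0 and 32 below, and values from -0.57 for CTR9 to 0.62 for RNF141. By edgeR's quasi-likelihood test with Benjamini-Hochberg adjustment over all tested genes, 0 of the 60 were called higher and 0 lower, where 5.26% and 6.71% of all tested genes were. At an unadjusted p under 0.05, 1 was higher and 4 were lower, and DESeq2 called 0. Both PAX6_Ta KO libraries lay above both PBX3_Cl KO libraries for 9 genes and below for 10, beside 24.1% and 25.6% of all tested genes. A p above the threshold does not show equal levels. The 95% interval lay wholly between -0.58 and 0.58 for 21 of the 60 genes and reached beyond it for the rest.

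RNF141, which encodes a RING finger protein, had the largest difference between the knockouts, with 51.6 and 46.1 CPM in PAX6_Ta KO and 36.2 and 27.4 CPM in PBX3_Cl KO, against 18.5 and 20.5 CPM in Control. The 3 groups did not overlap. PAX6_Ta KO exceeded PBX3_Cl KO by 0.62 (standard error 0.21, adjusted p = 0.0749 by edgeR). CTR9, a scaffold subunit of the PAF1 complex of elongating RNA polymerase II, had 106 and 102 CPM in PAX6_Ta KO and 176 and 135 CPM in PBX3_Cl KO, against 81.2 and 85.3 CPM in Control. Here PBX3_Cl KO was the highest group, at a log2 fold change between the knockouts of -0.57 (standard error 0.20, adjusted p = 0.0851 by edgeR). RNF141 was called with upper-quartile factors (0.72) and with the filter at a CPM above 1 in 2 libraries (0.67). Without PBX3_Cl KO replicate 1, RNF141, TMEM41B and CTSD were called (0.88, 0.63 and -0.64), and without PBX3_Cl KO replicate 2, CTR9 and HSD17B12 (-0.75 and -0.63).

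TEAD1, a transcription factor of the Hippo pathway, had 47.2 and 53.8 CPM in PAX6_Ta KO and 68.5 and 72.0 CPM in PBX3_Cl KO, against 37.1 and 41.1 CPM in Control. Its libraries did not overlap between the knockouts, and the difference of -0.48 had a standard error of 0.19 (adjusted p = 0.130 by edgeR). SBF2, a pseudophosphatase linked to endosomes and to a form of Charcot-Marie-Tooth neuropathy, had 9.33 and 8.28 CPM in PAX6_Ta KO and 14.1 and 11.7 CPM in PBX3_Cl KO, against 4.55 and 5.29 CPM in Control. Both knockouts were above Control, and the difference between them was -0.55 (standard error 0.24, adjusted p = 0.190 by edgeR). DDB2, the damage-recognition factor of nucleotide excision repair that is mutated in xeroderma pigmentosum group E, had 14.5 and 10.8 CPM in PAX6_Ta KO and 10.1 and 8.40 CPM in PBX3_Cl KO, against 5.61 and 4.02 CPM in Control. The knockouts differed by 0.45 there (standard error 0.27, adjusted p = 0.353 by edgeR).

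ILK, the integrin-linked kinase, was near the detection limit, with 34 and 52 counts in PAX6_Ta KO and 27 and 84 counts in PBX3_Cl KO, against 52 and 46 counts in Control. The libraries of all groups overlapped, and the log2 fold change of -0.53 between the knockouts had a 95% interval of -1.64 to 0.58. Of its exon length, 78.5% overlaps other annotated genes, and the counting rule for shared sequence is not known here. The same holds for 53.7% of the exon length of TAF10, 48.2% of CTSD and 41.4% of USP47.

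**Figure D2:**
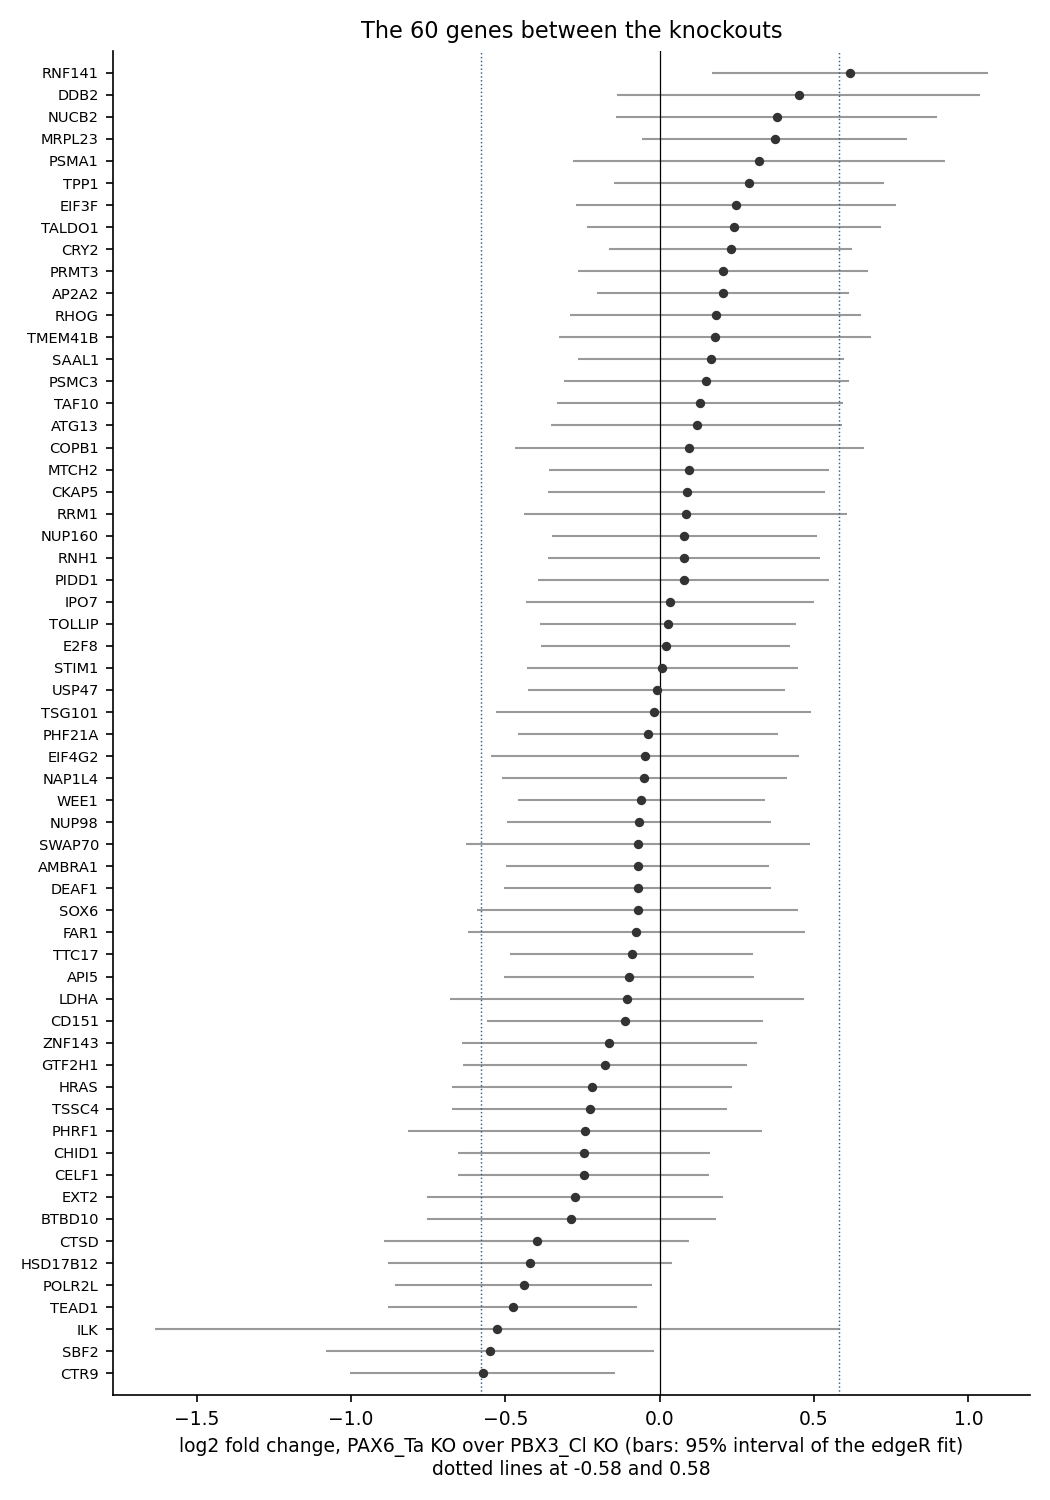
Log2 fold change of PAX6_Ta KO over PBX3_Cl KO (x axis) for each of the 60 genes (y axis), with the 95% interval of the edgeR fit as a bar and dotted lines at -0.58 and 0.58. The values run from -0.57 for CTR9 to 0.62 for RNF141, and 21 intervals lie wholly between the dotted lines.

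By role, the 7 genes of the lysosome, endosome and membrane traffic stood highest, with a median of 0.94 in PAX6_Ta KO and 0.92 in PBX3_Cl KO against Control. Of the 7, 6 were called higher in each knockout, beside 7.21% of all tested genes in PAX6_Ta KO and 6.28% in PBX3_Cl KO, a count from the comparisons that chose the list. CTSD, the lysosomal protease cathepsin D, had 37.8 and 33.4 CPM in PAX6_Ta KO and 36.6 and 57.2 CPM in PBX3_Cl KO, against 17.0 and 17.4 CPM in Control. The second PBX3_Cl KO library was the highest, and the log2 fold changes over Control were 1.05 and 1.45. TPP1, a lysosomal peptidase whose loss causes a neuronal ceroid lipofuscinosis, had 99.8 and 86.0 CPM in PAX6_Ta KO and 66.5 and 85.5 CPM in PBX3_Cl KO, against 42.8 and 37.5 CPM in Control, or 1.21 and 0.92 on the log2 scale. TSG101, an ESCRT-I subunit that sorts ubiquitinated cargo at endosomes, had 66.8 and 43.9 CPM in PAX6_Ta KO and 64.0 and 48.2 CPM in PBX3_Cl KO, against 26.1 and 23.5 CPM in Control. Its log2 fold changes over Control were 1.16 and 1.18, and the knockouts differed by -0.02 with a standard error of 0.23. COPB1, a coat subunit of COPI vesicles and the most abundant of these genes per length in Control (20.1 CPM per kb), had 180 and 153 CPM in PAX6_Ta KO and 202 and 110 CPM in PBX3_Cl KO, against 110 and 94.97 CPM in Control. One PBX3_Cl KO library thus lay close to the upper Control library. TOLLIP and the clathrin adaptor subunit AP2A2 stood at 0.94 and 0.93 in PAX6_Ta KO and at 0.91 and 0.72 in PBX3_Cl KO.

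The 3 autophagy genes had medians of 0.90 and 0.77. TMEM41B, a lipid scramblase of the endoplasmic reticulum needed to form autophagosomes, had 80.7 and 78.3 CPM in PAX6_Ta KO and 87.6 and 52.8 CPM in PBX3_Cl KO, against 42.4 and 40 CPM in Control. ATG13, of the ULK1 kinase complex, stood at 0.90 and 0.78, and AMBRA1, which links autophagy to ubiquitin ligases, at 0.66 and 0.74.

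Among signalling and adhesion genes, with medians of 0.60 and 0.59, was the highest of the 60 in PAX6_Ta KO. NUCB2, a calcium-binding protein and the precursor of nesfatin-1, had 62.0 and 44.5 CPM in PAX6_Ta KO and 48.8 and 33.1 CPM in PBX3_Cl KO, against 19.5 and 16.5 CPM in Control. All knockout libraries were above Control, at log2 fold changes of 1.56 (standard error 0.25) and 1.19 (0.24). RHOG, a small GTPase that acts upstream of RAC, had 91.3 and 68.4 CPM in PAX6_Ta KO and 81.2 and 59.6 CPM in PBX3_Cl KO, against 34.0 and 35.5 CPM in Control, or 1.20 and 1.02. The RAS oncogene HRAS stood at 0.36 and 0.58, the tetraspanin CD151 at 0.76 and 0.87 and the calcium sensor STIM1 at 0.60 and 0.59. SWAP70, at 0.17 and 0.24, overlapped with Control in both comparisons.

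Among proteasome and ubiquitin genes, PSMC3, an ATPase subunit of the 19S particle, had 210 and 180 CPM in PAX6_Ta KO and 205 and 147 CPM in PBX3_Cl KO, against 130 and 124 CPM in Control. PSMA1, an alpha subunit of the 20S core, had 10.1 and 14.04 CPM in PAX6_Ta KO and 11.2 and 8.08 CPM in PBX3_Cl KO, against 7.51 and 10.2 CPM in Control. Its groups overlapped, and its log2 fold changes were 0.45 and 0.13. The deubiquitinase USP47 stood at 0.49 and 0.50.

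In translation and RNA, EIF4G2, an initiation factor that works without the cap-binding protein, had 1130 and 1169 CPM in PAX6_Ta KO and 1347 and 1028 CPM in PBX3_Cl KO, against 826 and 772 CPM in Control. It was the most abundant of the 60 in CPM, and its groups did not overlap with Control. RNH1, the cytosolic ribonuclease inhibitor and the gene of the list nearest the telomere, had 206.4 and 173.5 CPM in PAX6_Ta KO and 185.2 and 174.5 CPM in PBX3_Cl KO, against 138 and 109 CPM in Control. EIF3F stood at 1.02 and 0.77, the mitochondrial ribosomal protein MRPL23 at 0.62 and 0.24, and the splicing regulator CELF1 at 0.41 and 0.66.

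The 5 genes of the cell cycle, DNA and chromosomes had medians of 0.55 and 0.51. CKAP5, a microtubule polymerase of the spindle, had 580 and 547 CPM in PAX6_Ta KO and 552 and 508 CPM in PBX3_Cl KO, against 399 and 344 CPM in Control. The mitotic inhibitor kinase WEE1 stood at 0.30 and 0.36, the large subunit of ribonucleotide reductase RRM1 at 0.53 and 0.45 and the histone chaperone NAP1L4 at 0.55 and 0.60.

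The nuclear pore and import genes stood close together. IPO7, an importin for ribosomal proteins and histones, had 360 and 368 CPM in PAX6_Ta KO and 412 and 299 CPM in PBX3_Cl KO, against 251 and 254 CPM in Control. NUP160, a scaffold nucleoporin and the gene of the list nearest the centromere, had 184 and 200 CPM in PAX6_Ta KO and 202 and 161 CPM in PBX3_Cl KO, against 136 and 145 CPM in Control. With NUP98, the 3 genes ranged from 0.45 to 0.53 in PAX6_Ta KO and from 0.37 to 0.55 in PBX3_Cl KO.

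The 13 genes of transcription and chromatin had medians of 0.37 and 0.52 and held the gene with the lowest value in PBX3_Cl KO. SOX6, a transcription factor of definitive erythropoiesis that represses embryonic globin in mice, had 7.37 and 6.78 CPM in PAX6_Ta KO and 7.10 and 7.77 CPM in PBX3_Cl KO, against 13.6 and 11.5 CPM in Control. All 4 knockout libraries were below Control, at log2 fold changes of -0.83 and -0.76 (standard error 0.24 each), while its neighbours on the list along the arm, PSMA1 and NUCB2, were above 0 in both. POLR2L, a small subunit shared by the RNA polymerases, had 31.1 and 36.8 CPM in PAX6_Ta KO and 43.1 and 49.1 CPM in PBX3_Cl KO, against 34.9 and 36.2 CPM in Control. Its PAX6_Ta KO libraries overlapped with Control and its PBX3_Cl KO libraries lay above it. CRY2, a circadian repressor, had 73.5 and 71.4 CPM in PAX6_Ta KO and 58.9 and 64.7 CPM in PBX3_Cl KO, against 54.8 and 52.4 CPM in Control. PRMT3, an arginine methyltransferase, had 52.8 and 56.1 CPM in PAX6_Ta KO and 56.8 and 37.7 CPM in PBX3_Cl KO, against 36.9 and 36.3 CPM in Control. The others ran from 0.05 and 0.21 for ZNF143, a promoter-bound activator, to 0.79 and 0.83 for PHF21A, a subunit of the CoREST repressor, with PHRF1, DEAF1, TAF10, GTF2H1 and E2F8 between these in PAX6_Ta KO.

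The 6 genes of metabolism had medians of 0.30 and 0.32 and ran from -0.86 to 1.00 in PAX6_Ta KO. HSD17B12, a ketoreductase of very long chain fatty acid elongation, had 17.1 and 17.3 CPM in PAX6_Ta KO and 26.7 and 19.4 CPM in PBX3_Cl KO, against 30.2 and 32.2 CPM in Control. Every knockout library was below Control, at log2 fold changes of -0.86 (standard error 0.21) and -0.44 (0.21). FAR1, a fatty acyl-CoA reductase of ether lipid synthesis, had 20.4 and 26.8 CPM in PAX6_Ta KO and 30.8 and 18.9 CPM in PBX3_Cl KO, against 23.8 and 26.8 CPM in Control, and its groups overlapped. TALDO1, the transaldolase of the pentose phosphate pathway, was the most abundant gene of the list per length in Control (107 CPM per kb), with 692 and 553 CPM in PAX6_Ta KO and 527 and 527 CPM in PBX3_Cl KO, against 344 and 278 CPM in Control. LDHA, the lactate dehydrogenase of glycolysis, stood at 0.20 and 0.31, the heparan sulfate polymerase EXT2 at 0.40 and 0.68 and the mitochondrial outer membrane protein MTCH2 at 0.43 and 0.34.

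API5, an apoptosis inhibitor, had 103 and 107 CPM in PAX6_Ta KO and 122 and 103 CPM in PBX3_Cl KO, against 80.7 and 85.4 CPM in Control. PIDD1, a death domain protein activated through p53, stood at 0.77 and 0.69. Of the 5 remaining genes, TSSC4 had 57.2 and 46.4 CPM in PAX6_Ta KO and 59.6 and 61.7 CPM in PBX3_Cl KO, against 38.4 and 29.2 CPM in Control. CHID1, SAAL1, BTBD10 and TTC17 ranged with it from 0.50 to 0.76 in PAX6_Ta KO and from 0.53 to 0.90 in PBX3_Cl KO.

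Promoters of the gene highest in each knockout and of a gene that was lower in both are printed to show the sequence at both ends of the list's range, as 250 bases before to 50 after the start of the gene (RefSeq, GRCh38.p14), with CpG dinucleotides in capitals. They stand at chr11:17276489-17276788 on the plus strand, chr11:1763878-1764177 on the minus strand and chr11:16738428-16738727 on the minus strand.
NUCB2: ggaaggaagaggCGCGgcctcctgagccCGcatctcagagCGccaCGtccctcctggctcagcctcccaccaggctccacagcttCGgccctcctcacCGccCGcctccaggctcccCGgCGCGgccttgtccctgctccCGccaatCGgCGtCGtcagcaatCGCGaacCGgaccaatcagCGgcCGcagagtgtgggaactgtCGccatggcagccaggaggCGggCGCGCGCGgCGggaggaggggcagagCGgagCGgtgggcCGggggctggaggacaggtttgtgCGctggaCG
CTSD: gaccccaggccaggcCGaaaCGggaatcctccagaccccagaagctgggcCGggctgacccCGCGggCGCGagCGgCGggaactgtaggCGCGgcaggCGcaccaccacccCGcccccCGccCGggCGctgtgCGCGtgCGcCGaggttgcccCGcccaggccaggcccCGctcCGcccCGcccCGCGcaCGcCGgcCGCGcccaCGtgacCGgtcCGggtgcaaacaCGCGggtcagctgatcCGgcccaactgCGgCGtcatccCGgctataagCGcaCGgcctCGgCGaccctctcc
SOX6: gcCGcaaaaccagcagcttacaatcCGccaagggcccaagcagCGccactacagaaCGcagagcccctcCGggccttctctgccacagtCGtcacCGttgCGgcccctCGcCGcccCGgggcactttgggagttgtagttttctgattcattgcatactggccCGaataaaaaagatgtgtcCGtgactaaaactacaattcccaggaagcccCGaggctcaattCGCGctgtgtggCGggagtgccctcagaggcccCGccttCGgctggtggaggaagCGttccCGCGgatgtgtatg
The NUCB2 promoter held 32 CpG at 72.3% GC, that of CTSD 43 at 77.3% and that of SOX6 22 at 60%. Of the 60 genes, 53 matched an entry, with a median of 31 CpG and 67.0% GC, beside 26 and 65.0% over 10810 tested protein-coding genes. Searched on both strands, the GC box GGGCGG was in 66.0% of the 53 promoters and 68.5% of the 10810, CCAAT in 30.2% and 36.5%, the ETS core CCGGAAG in 22.6% and 18.5%, TATAAA in 7.55% and 6.22%, and AGATAA, of GATA factors, in 1.89% and 5.46%. These are matches of letters and not sites.

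The medians along the arm lay between 0.49 and 0.72. In 4 consecutive runs of 15 genes from the telomere to the centromere, the medians were 0.65, 0.60, 0.49 and 0.57 in PAX6_Ta KO and 0.72, 0.59, 0.57 and 0.51 in PBX3_Cl KO against Control. Between the knockouts the same runs had medians of -0.07, 0.03, -0.05 and 0.08. The tested genes of 11p that are not on the list and lie within the spans of these runs (49, 86, 39 and 60 genes) had medians of 0.81, 0.62, 0.52 and 0.74 in PAX6_Ta KO and 0.64, 0.68, 0.45 and 0.61 in PBX3_Cl KO.

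**Figure D3:**
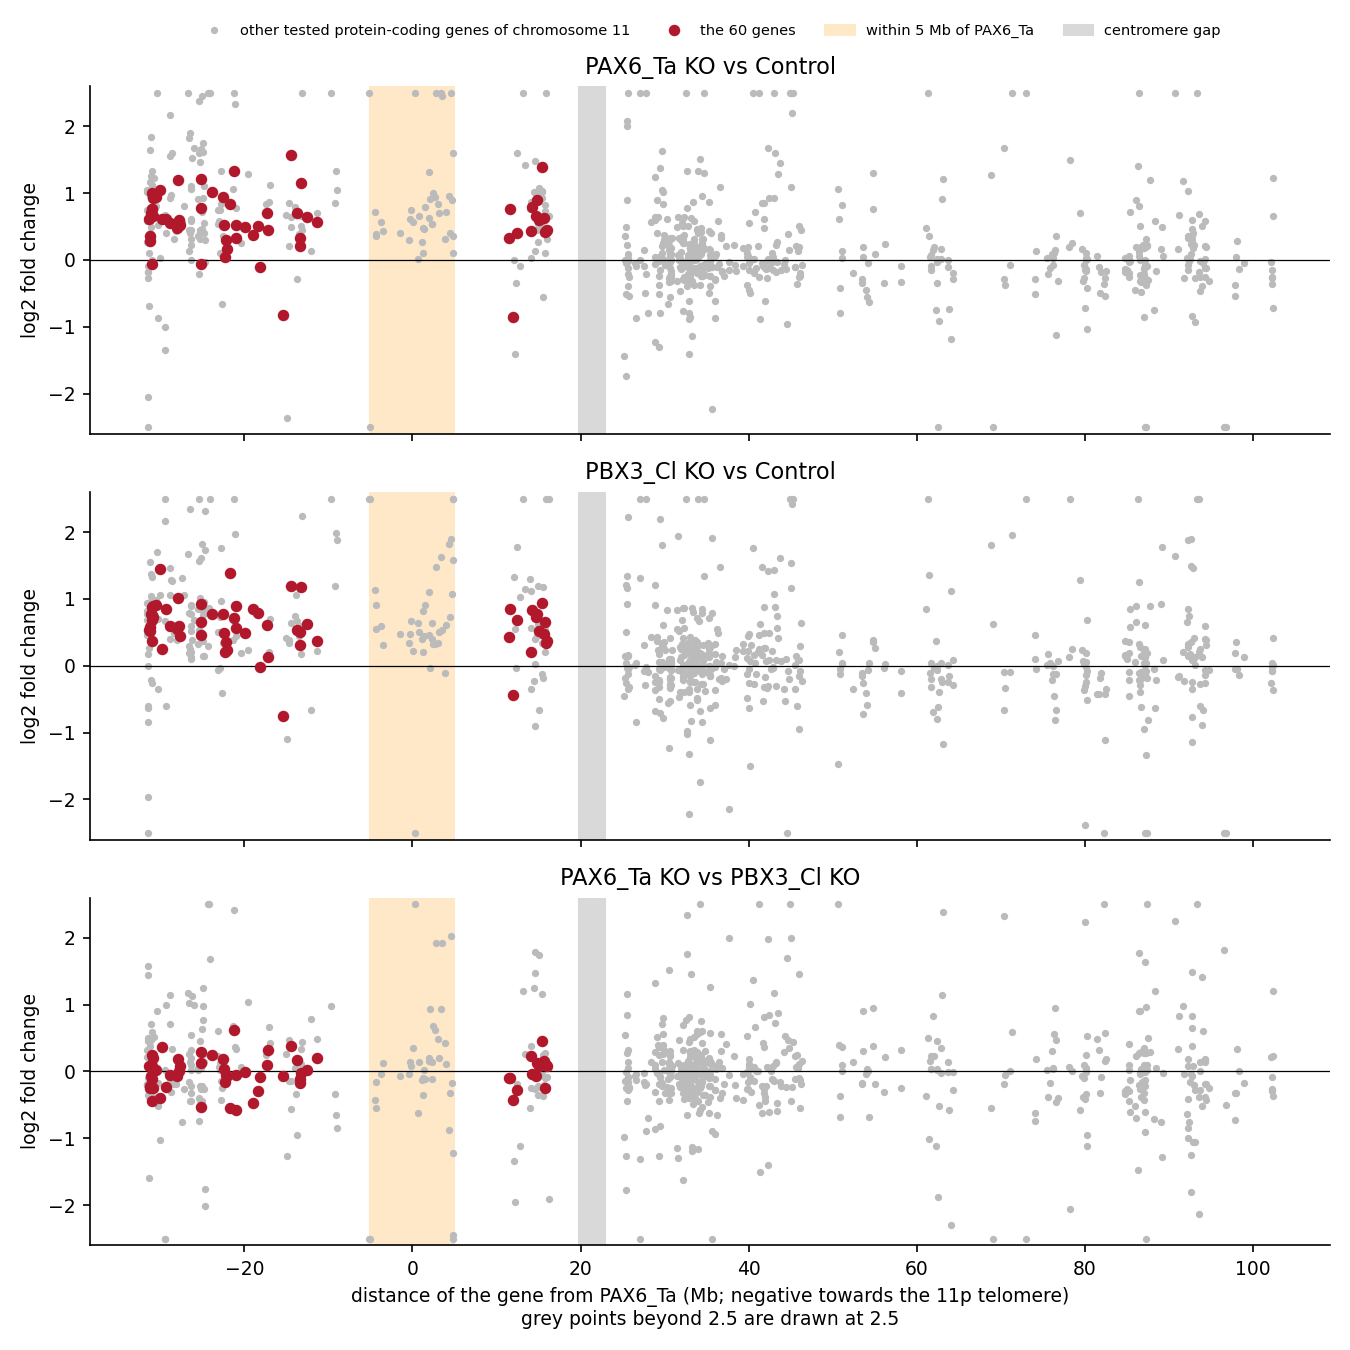
Log2 fold change (y axis) against distance from PAX6_Ta in Mb (x axis, negative towards the 11p telomere) for the 60 genes in red and the other tested protein-coding genes of chromosome 11 in grey, in PAX6_Ta KO and PBX3_Cl KO against Control and between the knockouts. The red points centre on 0.60 in both upper panels and on -0.03 in the lowest, and the grey points beyond the centromere gap centre near 0.

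The 276 other tested genes of 11p outside the window had medians of 0.61 in PAX6_Ta KO and 0.60 in PBX3_Cl KO against Control and of 0.04 between the knockouts. In PAX6_Ta KO the standard deviation between genes was 0.44 on the list and 1.43 among these others. The others were measured less precisely, with a root mean square of the standard errors of 0.49 against 0.22 on the list. Between the knockouts, 24 of these genes (8.7%) were called higher and 15 (5.43%) lower in PAX6_Ta KO. The shares were 5.26% and 6.71% over all tested genes, and on the list 0 of 60 were called. The 49 tested genes within 5 Mb of PAX6_Ta had medians of 0.61, 0.55 and 0.02 in the same comparisons. Across the centromere, the 731 tested genes of 11q had medians of -0.01, -0.00 and 0.00.

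Set beside the other arms by the median of their tested protein-coding genes, 11p (0.62) was second of 41 in PAX6_Ta KO, after 7p (0.65) and ahead of 14q (0.26). In PBX3_Cl KO 11p was first (0.64), followed by 7p (0.58) and 7q (0.37). Both 11p and 7p differed little between the knockouts, at 0.02 and -0.01, whereas 7q stood at -0.24 in PAX6_Ta KO and 0.37 in PBX3_Cl KO against Control, with 36.3% of its genes called lower in PAX6_Ta KO when the knockouts were compared, and 14q stood at 0.31 between the knockouts. The 11p medians here include the listed genes. The 276 other tested genes of 11p outside the window had medians of 0.61 and 0.60 against Control, with 55 of them below 0 in each knockout. The median of the 60 genes was thus close to that of these other 11p genes and to that of 7p.

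Of the 60 genes, 19 encode a subunit of 17 complexes or enzyme families whose other members were listed as well. These 19 had medians of 0.53 in PAX6_Ta KO and 0.58 in PBX3_Cl KO against Control. Of 129 partner genes encoded off 11p, 124 were tested, and their medians were -0.02 and 0.00. By edgeR, 0 of the 124 were called higher and 1 lower in PAX6_Ta KO against Control, beside 7.21% and 4.21% of all tested genes. In PBX3_Cl KO, 1 was called higher and 0 lower, beside 6.28% and 2.69%. Between the knockouts, 1 was called higher and 2 lower, beside 5.26% and 6.71%. The partners were thus called less often than all tested genes in each comparison. In PAX6_Ta KO, 16 of the 19 subunits lay above every tested partner of their complex that is encoded off 11p, and in PBX3_Cl KO 15 did. Some sets had few such partners, with 1 tested for lactate dehydrogenase, 2 for RAS and 3 for the ILK complex. Partners on 7p count as off 11p, among them EIF3B (0.49 and 0.37) and PSMA2 (-0.15 and 0.21). Some of the subunits' leads over their partners were far smaller than the standard errors. In PAX6_Ta KO, PSMA1 stood at 0.448 (standard error 0.28) and PSMB1 at 0.441 (0.26). NUP160 and NUP43 stood at 0.4515 and 0.4423 there, and CTR9 and LEO1 at 0.3243 and 0.3226. ILK was counted at -0.06, as its tested partners off 11p lay at -0.12 or lower. The list was chosen on the arm's level, so this order describes the genes. The partners PSMD13 and EIF3M are themselves on 11p, EIF3M within 5 Mb of PAX6_Ta. They stood at 0.27 and 0.65 in PAX6_Ta KO and at 0.45 and 0.51 in PBX3_Cl KO.

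In the proteasome, PSMC3 (0.62 and 0.47) and PSMA1 (0.45 and 0.13) stood beside 29 partners with medians of -0.02 and -0.01. In eIF3, EIF3F stood beside 11 partners at 0.12 and 0.16, in AP-2 AP2A2 beside 4 at 0.11 and 0.05, and in the CUL4-DDB ligase DDB2 beside 4 at -0.20 and -0.17. POLR2L stood at -0.07 in PAX6_Ta KO, beside 11 other RNA polymerase II subunits with a median of -0.10.

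The partners that were called were few. VPS37A, which sits with TSG101 in ESCRT-I, had 26.5 and 26.6 CPM in PAX6_Ta KO and 49.1 and 38.0 CPM in PBX3_Cl KO, against 44.4 and 43.4 CPM in Control. It fell by 0.72 against Control (standard error 0.20, adjusted p = 0.0322 by edgeR) and by 0.71 against PBX3_Cl KO (adjusted p = 0.0328), and lost the first call without any one of the libraries compared, at log2 fold changes of -0.74 to -0.70, and the second without PAX6_Ta KO replicate 1, PAX6_Ta KO replicate 2 or PBX3_Cl KO replicate 1 (-0.71, -0.67 and -0.47). COPA, the alpha coat subunit beside COPB1, had 479 and 354 CPM in PAX6_Ta KO and 822 and 602 CPM in PBX3_Cl KO, against 409 and 337 CPM in Control. It rose by 0.93 in PBX3_Cl KO over Control (standard error 0.25, adjusted p = 0.0324 by edgeR), a call that was lost without Control replicate 1 (1.08), Control replicate 2 (0.80) or PBX3_Cl KO replicate 1 (0.66). Between the knockouts COPA was not called (-0.77, adjusted p = 0.0617 by edgeR), while DESeq2 called it (-0.75, adjusted p = 0.0422), as did edgeR with no filter on low counts (-0.75, adjusted p = 0.0207) and without PBX3_Cl KO replicate 2 (-0.98, adjusted p = 0.0316).

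RRM2, the small subunit of ribonucleotide reductase, had 226 and 211 CPM in PAX6_Ta KO and 439 and 309 CPM in PBX3_Cl KO, against 321 and 296 CPM in Control. The log2 fold change between the knockouts was -0.78 (standard error 0.22, adjusted p = 0.0380 by edgeR), while RRM1 on 11p differed by 0.08. GTF2H5, the smallest subunit of TFIIH, had 10.8 and 11.04 CPM in PAX6_Ta KO and 6.33 and 3.95 CPM in PBX3_Cl KO, against 6.80 and 8.34 CPM in Control. PAX6_Ta KO exceeded PBX3_Cl KO by 1.08 there (standard error 0.28, adjusted p = 0.0262 by edgeR), and GTF2H1 on 11p differed by -0.18. The RRM2 call was lost without PAX6_Ta KO replicate 1 (-0.83), PAX6_Ta KO replicate 2 (-0.68) or PBX3_Cl KO replicate 1 (-0.46) and with TMM factors from genes not on 11p (-0.75), and the GTF2H5 call without PAX6_Ta KO replicate 1 (1.102), PAX6_Ta KO replicate 2 (1.117) or PBX3_Cl KO replicate 2 (0.78).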

How the data were processed

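The data are RNA-seq of K562, with 2 libraries per group (PAX6_Ta KO, PBX3_Cl KO, Control). Per the sources, the authors used cutadapt (version 3.4) for trimming and STAR for alignment to GRCh37, and deposited a table of raw read counts per gene with no normalization. The strand setting of the counting and its handling of overlapping genes are not given in the sources. Of the table's columns, 4 of other samples match no label and were not used. The authors also deposited DESeq2 comparison tables holding log2 fold changes and p-values, which were not used.

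edgeR (version 4.0.16, under R 4.3.3) was run on the deposited counts. After filterByExpr by group and TMM scaling, 1 quasi-likelihood fit took in all 6 libraries. p-values were adjusted by Benjamini-Hochberg over 20746 genes, and a gene was called below 0.05. CPM are counts scaled to the TMM-adjusted library size, except those of the cell type markers, which were scaled to the total counts of the library. The alternatives were upper-quartile factors, TMM from genes not on 11p, no filter, CPM above 1 in 2 libraries, a replicate block, only the groups compared, leaving out each library, and DESeq2 (version 1.42.0). The fit was tested on simulated data.

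The members, roles and complexes were chosen with earlier results of these data known. Named with values in every library were the 6 genes with the largest difference between the knockouts, the 5 highest and 5 lowest in each knockout against Control, those nearest the telomere, the centromere and the window, and in each role the gene with the highest Control level per length. Partners were named where called, and arms where among the 3 highest medians. ATG101 and SEM1 stand for the older symbols C12orf44 and SHFM1.

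Genes were placed with GENCODE release 44 lifted to GRCh37, and arms were split at the longest sequence gap. Replicates of a group differed by more than sampling noise.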

Additional observations from a re-analysis of the deposited data

Results flagged for a closer look

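These genes were picked by a call between the knockouts or by knockouts lying on opposite sides of Control. They are partners of the listed genes encoded off 11p. By edgeR's test between PAX6_Ta KO and PBX3_Cl KO, GTF2H5 differed by a log2 fold change of 1.08, RRM2 by -0.78 and VPS37A by -0.71. For POLR2J (-0.42), PSMB4 (-0.52), VPS37B (-0.60) and RCOR1 (0.25), both libraries of one knockout lay above Control and both of the other below it. RCOR1 was above Control in PAX6_Ta KO and the other 3 in PBX3_Cl KO. For these 4 no difference between the knockouts was called, and being on opposite sides of Control was not itself tested. How often all tested genes lay on opposite sides was not counted. Against Control, both libraries lay above for 27.0% of all tested genes in PAX6_Ta KO and 23.5% in PBX3_Cl KO. They lay below for 28.0% and 20.6%. None of the 60 listed genes met either condition, and a choice of genes higher in both knockouts makes both conditions less likely to be met.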

How the results depend on the processing

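With 2 libraries a group, single libraries set the counts. Leaving out each library in turn, the 60 genes gave 4 to 32 called higher in PAX6_Ta KO against Control (24 with all libraries), 6 to 28 in PBX3_Cl KO against Control (20) and 0 to 3 called between the knockouts (0). Their medians ranged from 0.52 to 0.66, from 0.49 to 0.68 and from -0.071 to 0.15 in these comparisons. The medians of the partners encoded off 11p ranged from -0.10 to 0.11, from -0.19 to 0.17 and from -0.15 to 0.18. With all libraries, the counts moved by more than 1.5 times with upper-quartile factors and a CPM above 1 in 2 libraries, each to 1 called between the knockouts. Upper-quartile factors moved the median of all tested genes to 0.09 between the knockouts, and 43 of the 60 genes were then above 0 there instead of 28. The cause of these changes was not tested. No direction of a call reversed under these alternatives. With the replicate number as a block, 36 genes were called higher in PBX3_Cl KO against Control and 3 between the knockouts (RNF141 at 0.62, CTR9 at -0.57 and TEAD1 at -0.48), and COPA was called between the knockouts (-0.77). The shared numbers are not known to pair the libraries. Across genes, the difference of replicate 1 and replicate 2 correlated at 0.389 for PAX6_Ta KO with Control, 0.21 for PBX3_Cl KO with Control and 0.379 for the knockouts. Fits without a library leave 1 in its group, which is assumed to vary like the others. ILK, with 27 to 84 counts a library, is limited by depth.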
